A study of Mus musculus with 9 samples.

Results

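The members are the 45 genes of mouse that encode receptor subunits for GABA (16 genes), glycine (5) and glutamate (24) and that had at least 90 counts over the 9 libraries, out of 26683 genes in the table. They were chosen by gene symbol, with earlier results of these data known, so the shares of members given below describe this list and are no independent test of it. The symbol patterns matched 46 rows, and the row left out by the count minimum was Gabre, with 68 counts in all. Gabra5 with 209 counts and Gabrq with 235 were the members closest to the minimum, and their values are correspondingly imprecise. The patterns leave out Grik1 and Grm6, a pair of glutamate receptors that mark bipolar cells, whose values are given beside the members' where they bear on them.

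The libraries are bulk RNA sequencing of whole retinas taken at postnatal day 17, with 3 libraries in each of 3 groups. In oxygen-induced retinopathy (OIR), pups grow in high oxygen, lose retinal capillaries and form abnormal vessels after they return to room air. Gel retinas were taken from OIR mice given the hydrogel PCC1/PHCF into the vitreous at postnatal day 15. PBS retinas came from OIR mice given saline by the same route on the same day. Normoxic retinas came from mice raised without the oxygen exposure, and the labels do not say that their eyes were injected. PCC1 is procyanidin C1, a plant polyphenol. The PBS and Normoxic groups therefore differ by oxygen exposure and perhaps also by an injection, and Gel and PBS differ in drug and carrier together, since no group received the gel alone. The sources used here do not state strain or sex, or whether the 3 libraries of a group are separate animals, so the p-values measure the spread between these samples only.

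In the retina, glutamate carries the signal from photoreceptors through bipolar cells to ganglion cells. GABA and glycine, released by horizontal and amacrine cells, shape it on the way. GABA-A and glycine receptors are chloride channels of 5 subunits, and GABA-A receptors are usually built of alpha, beta and gamma or delta subunits, while rho subunits form a slow, sustained type found on bipolar cell terminals. The ionotropic glutamate receptors (AMPA, kainate, NMDA and the related delta receptors) are cation channels of 4 subunits, and the metabotropic receptors act through G proteins.

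Levels per gene length are given first, as FPKM (counts scaled by gene length and library total), since these can be compared between genes. The highest mean FPKM over the 9 libraries were those of Grin1, the subunit that every NMDA receptor needs (42.4), and of Gabrr1 and Gabrr2, the main rho subunits (41.1 and 22.5). The kainate subunit Grik5 stood at 18.0 FPKM and the AMPA subunit Gria4 at 17.3. Among glycine subunits Glrb, which anchors the receptor to gephyrin, was the highest at 12.3, and among metabotropic receptors Grm2, which inhibits transmitter release, was the highest at 10.3. Gabrd, the subunit of receptors outside synapses, stood at 11.8 FPKM and Grid1 at 5.47. The lowest were Gabra5 (0.173) and Gabrq (0.128).

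**Figure D1:**
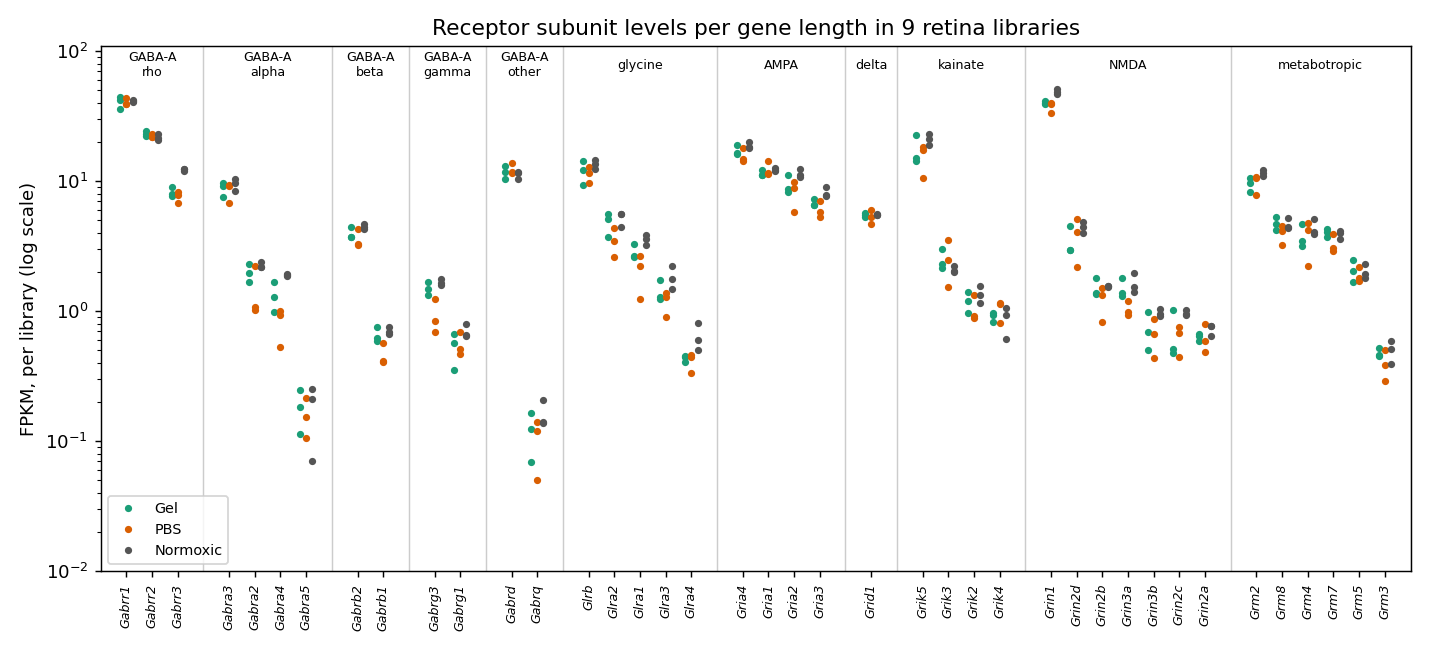
FPKM of 40 of the 45 receptor subunits (log scale), by family and in falling order of mean level, with 1 point for each Gel, PBS and Normoxic library. Grin1 and Gabrr1 are highest, at 42.4 and 41.1 on average, and Gabrq is lowest at 0.128.

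Summed over all members, FPKM was 324, 327 and 341 in Gel, 304, 329 and 295 in PBS, and 370, 359 and 358 in Normoxic retinas. All 3 Normoxic sums lay above all 6 sums of the injected retinas, while Gel and PBS overlapped. The sum in PBS was 14.6% below that in Normoxic, and by family the glycine receptor sum was 25.1% lower, the NMDA sum 23.2% lower and the rho sum 6.37% lower. The sum of Gabrd and Gabrq was 9.32% higher. That sum and the sums of the GABA-A beta and gamma subunits, the delta receptors and the kainate subunits overlapped between PBS and Normoxic.

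The first question is how receptor expression in OIR retinas given saline differed from that in Normoxic retinas. Of the 45 members, 6 (13.3%) were called lower in PBS at an edgeR adjusted p under 0.05, against 2.03% of all 17362 genes tested. They were Gabrr3, Gabra4, Gabrg3 and Gabrb1, subunits of GABA receptors, and Gria3 and Grin1, subunits of glutamate receptors. By edgeR no member was called higher, against 4.31% of all genes, and 0 reached an unadjusted p under 0.05 in that direction, against 12.3% of all genes. DESeq2 and limma-voom also called 0 members higher, where they called 1163 and 691 of all genes higher. Lower values at an unadjusted p under 0.05 were found for 17 members (37.8%), against 9.03% of all genes. The 3 PBS values lay below all 3 Normoxic values for 19 members (42.2%), against 14.1% of all genes, and above them for 0, against 14.9% of all genes. The log2 fold change was negative for 40 members, with a median of -0.306, where the median of all genes was 0.0098.

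In bulk tissue, fewer cells of a type and less RNA per cell cannot be told apart. Markers of the retinal neurons that carry these receptors were also lower in PBS when summed by cell type. Single markers did not all go that way: 3 of 10 bipolar and 1 of 10 ganglion cell markers had positive log2 fold changes. All 12 amacrine and all 5 horizontal cell markers had negative ones. Of 12 amacrine cell markers 3 fell (Slc6a9, Gad1 and Tfap2c), with summed levels of 1900 to 2110 CPM (counts scaled to a library total of 1000000) in PBS and 2460 to 2540 CPM in Normoxic. Of 10 bipolar cell markers 3 fell (Isl1 and Irx6 among them; 1390 to 1540 CPM in PBS, 1880 to 1890 CPM in Normoxic), and of 10 ganglion cell markers 2 fell (Nefm and Nefh; 1540 to 1950 CPM in PBS, 2060 to 2260 CPM in Normoxic). Lhx1 fell among 5 horizontal cell markers (209 to 308 CPM in PBS, 316 to 324 CPM in Normoxic). The median log2 fold changes of these 4 lists were -0.263, -0.303, -0.238 and -0.295, beside the members' own -0.306. With a trend of counts with gene length removed from every library, the 4 medians were -0.31, -0.294, -0.289 and -0.259. The members' median was then -0.184. The part of these cell types in the receptor result was not tested.

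Of 8 Muller glia markers 6 had negative log2 fold changes (median -0.249), and of these Aqp4 and Kcnj10 fell (summed levels of 4330 to 6000 CPM in PBS, 5250 to 5720 CPM in Normoxic). Of 8 rod and 8 cone markers 0 were called (medians 0.102 and 0.264; rod sums 48400 to 65700 CPM in PBS, against 51500 to 52600 CPM in Normoxic, cone sums 1160 to 1590 CPM and 924 to 1170 CPM). Of 8 microglial markers 5 rose (138 to 212 CPM in PBS, 59.7 to 66.9 CPM in Normoxic), of 8 endothelial markers 5 rose and Kdr fell (357 to 412 CPM and 346 to 389 CPM), of 7 pericyte markers 4 rose (288 to 427 CPM and 125 to 149 CPM) and of 5 astrocyte markers 3 rose (295 to 461 CPM and 69.9 to 94.8 CPM). Tissue next to the retina was also present at low and uneven levels. Pigment epithelium markers summed to 144 to 231 CPM in Gel, 56.4 to 202 CPM in PBS, against 24.2 to 95 CPM in Normoxic, and lens markers to 2.05 to 5.59 CPM, 1.18 to 3.38 CPM and 4.09 to 27.3 CPM in the same groups. The retina's defining markers Gnat1, Rlbp1, Tfap2a and Rbpms were present in all libraries, from Gnat1 at 11160 CPM on average in Gel to Rbpms at 44.6 CPM.

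Gabrr3, the least abundant of the rho subunits, was the member with the smallest p. It stood at 12.1, 11.4 and 9.85 CPM in PBS, against 18.2, 17.4 and 18.0 CPM in Normoxic. The groups were far apart, with every PBS library below every Normoxic library by more than the spread within either. The log2 fold change was -0.67 ± 0.12 (SE), a level 0.627 times that in Normoxic (edgeR adjusted p = 0.00955), and the call held under every alternative run, with adjusted p up to 0.0492. The other rho subunits did not pass the test. Gabrr1 averaged 107 ± 6.60 CPM in PBS, against 109 ± 1.68 CPM in Normoxic (SD, n = 3 each), and Gabrr2 averaged 73.3 ± 2.38 and 71.3 ± 3.63 CPM in the same order, with log2 fold changes of -0.02 and 0.05. Gabrr3 accordingly made up 10.8% ± 1.3 of rho FPKM in PBS and 16.2% ± 0.63 in Normoxic (SD, n = 3 each).

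The RefSeq sequences upstream of the called genes are shown so that the start regions of members with a lower level can be compared. RefSeq (build GRCm38.p6, not the build named for these files) lists such regions, each with 250 bases before and 50 after a start site, for 30 of the 45 members and 5 of the 6 called ones, and the regions of these 5 are printed, with 1 of the 2 listed for Gabrb1. A set of 5 short motifs was searched on both strands, counting overlapping matches, and matches are in capitals. They were the hypoxia response core ACGTG, the GC box GGGCGG, the TATA box TATAAA, the cAMP response core TGACG and the core TAATCC that the retinal factors CRX and OTX2 bind.
Gabrr3, chr16:59407132-59407431, plus strand: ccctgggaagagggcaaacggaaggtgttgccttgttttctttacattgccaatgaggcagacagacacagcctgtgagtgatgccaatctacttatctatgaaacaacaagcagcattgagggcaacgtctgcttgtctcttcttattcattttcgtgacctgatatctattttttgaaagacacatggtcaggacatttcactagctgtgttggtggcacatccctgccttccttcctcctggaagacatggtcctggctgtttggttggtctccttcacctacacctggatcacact
Gabra4, chr5:71658259-71658558, minus strand: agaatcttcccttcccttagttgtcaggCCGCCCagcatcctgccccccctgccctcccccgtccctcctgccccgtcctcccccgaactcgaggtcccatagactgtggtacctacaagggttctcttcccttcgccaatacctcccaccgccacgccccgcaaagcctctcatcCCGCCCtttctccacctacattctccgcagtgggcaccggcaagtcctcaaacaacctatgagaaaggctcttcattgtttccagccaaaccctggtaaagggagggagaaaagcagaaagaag
Gabrg3, chr7:57387166-57387465, minus strand: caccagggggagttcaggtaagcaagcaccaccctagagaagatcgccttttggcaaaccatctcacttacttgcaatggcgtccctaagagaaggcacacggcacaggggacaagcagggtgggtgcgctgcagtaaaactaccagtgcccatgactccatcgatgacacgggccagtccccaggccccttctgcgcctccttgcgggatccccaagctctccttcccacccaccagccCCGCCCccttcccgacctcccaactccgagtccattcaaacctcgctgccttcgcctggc
Gabrb1, chr5:71657671-71657970, plus strand: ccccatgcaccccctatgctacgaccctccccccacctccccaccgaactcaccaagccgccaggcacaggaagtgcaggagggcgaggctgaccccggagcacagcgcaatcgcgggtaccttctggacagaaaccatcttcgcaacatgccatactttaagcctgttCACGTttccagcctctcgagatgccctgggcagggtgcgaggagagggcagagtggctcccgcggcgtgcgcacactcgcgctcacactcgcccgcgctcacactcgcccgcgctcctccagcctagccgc
Grin1, chr2:25319138-25319437, minus strand: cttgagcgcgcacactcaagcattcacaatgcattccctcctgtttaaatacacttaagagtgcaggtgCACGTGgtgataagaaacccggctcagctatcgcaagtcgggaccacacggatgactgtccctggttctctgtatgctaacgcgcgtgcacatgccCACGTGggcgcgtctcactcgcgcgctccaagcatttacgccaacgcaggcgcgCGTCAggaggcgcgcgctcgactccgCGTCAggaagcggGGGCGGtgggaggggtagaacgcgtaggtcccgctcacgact

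The region of Gabrr3 held none of the 5 motifs and had a GC content of 47.0%, while that of Gabra4 held the GC box at 2 places, that of Gabrg3 at 1 place, and that of Gabrb1 held the hypoxia response core. The second region listed for Gabrb1 (chr5:71699682-71699981, plus strand) also held the hypoxia response core. In Grin1 the capitals cover the hypoxia response core, the cAMP response core and the GC box, and its GC content was 60.7%. Over the 37 regions of members, the GC box occurred in 51.4%, against 35.7% of all 32851 regions in the table. The hypoxia response core occurred in 16.2% of members' regions, against 19.6% of all regions, and the cAMP response core in 16.2%, against 20.8%. The TATA box occurred in 13.5%, against 13.6%, and the CRX and OTX2 core in 5.41%, against 7.06%. Such matches describe the letters only. The start of Gabra4 and the first of the 2 starts listed for Gabrb1 lie 387 bases apart on opposite strands, each downstream of the other, so reads from that overlap could count for either gene if counting ignored strand.

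The alpha subunits carry part of the GABA binding site. Gabra4, which in brain often joins delta subunits outside synapses, stood at 2.23, 4.19 and 3.91 CPM in PBS, against 8.12, 8.0 and 7.81 CPM in Normoxic. The Normoxic libraries were nearly equal, and all PBS libraries lay well below them. The log2 fold change was -1.20 ± 0.26 (SE), the most negative among the members, and the edgeR adjusted p was 0.0194, rising to between 0.0656 and 0.0688 when any 1 Normoxic library was left out. Gabra2 averaged 8.10 ± 3.79 CPM in PBS, against 12.7 ± 0.657 CPM in Normoxic (SD, n = 3 each) and did not pass (edgeR adjusted p = 0.169). PBS 2, at 12.5 CPM, lay among the Normoxic values, and the other PBS libraries, at 5.77 and 6.05 CPM, lay far below them. The more abundant Gabra3 overlapped between the groups (35.2 ± 6.07 CPM in PBS, 39.6 ± 4.14 CPM in Normoxic, SD, n = 3 each; edgeR adjusted p = 0.569).

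The beta and gamma subunits complete the channel. Gabrb1 stood at 5.99, 8.28 and 5.94 CPM in PBS, against 11.1, 9.75 and 10.1 CPM in Normoxic, with no overlap. Its log2 fold change was -0.61 ± 0.16 (SE; edgeR adjusted p = 0.0492). Gabrg3 stood at 6.91, 12.5 and 8.41 CPM in PBS, against 17.7, 16.4 and 15.8 CPM in Normoxic, a log2 fold change of -0.84 ± 0.19 (SE; edgeR adjusted p = 0.0229). In both genes PBS 2 was the PBS library closest to Normoxic. Gabrb2 (-0.31), Gabrg1 (-0.32) and Gabrq (-0.64) had negative log2 fold changes and Gabrd a positive one (0.15), none of which passed the test.

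The 4 GABA receptor genes called lower were thus minor members of their families: Gabra4, Gabrb1, Gabrg3 and Gabrr3 made up 6.30%, 2.85%, 7.24% and 16.2% of the FPKM of the alpha, beta, gamma and rho subunits in Normoxic. Many GABA-A genes sit in clusters. In the RefSeq gene order (GRCm38.p6), Gabra4 and Gabrb1 are direct neighbours, and both were called lower. Gabrg3 and Gabra5 follow each other, and of these Gabrg3 was called and Gabra5 was too low to judge (0.665 ± 0.228 CPM in PBS, against 0.748 ± 0.402 CPM in Normoxic). Gabrr1 and Gabrr2, also neighbours, were not called, and Gabrr3 stands elsewhere.

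**Figure D2:**
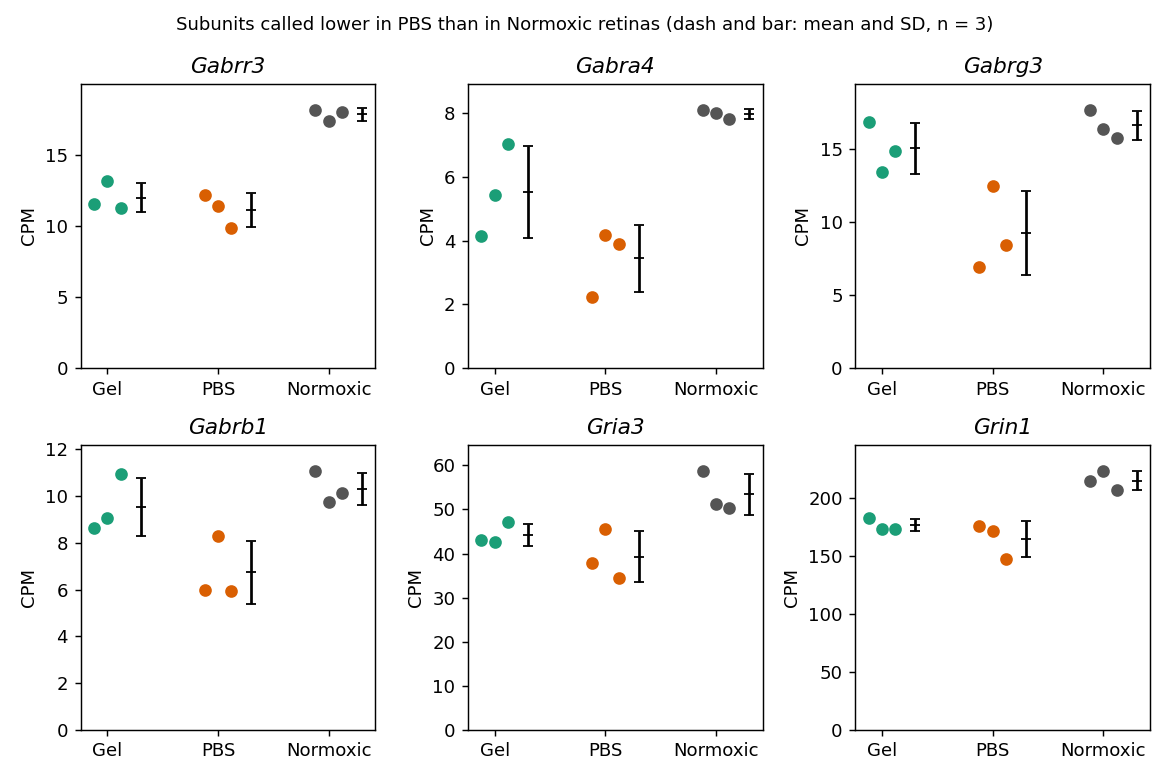
CPM of the 6 subunits called lower in PBS than in Normoxic, with 1 point for each library of Gel, PBS and Normoxic and the mean and SD beside the points (n = 3). PBS lies below Normoxic without overlap in all 6 panels. The mean of Gel lies nearer to PBS for Gabrr3, Grin1 and Gria3, between the groups for Gabra4, and nearer to Normoxic for Gabrg3 and Gabrb1.

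Of the 5 glycine receptor genes 0 were called in the main edgeR fit, although all 5 had negative log2 fold changes (median -0.592) and 4 had an unadjusted p under 0.05. DESeq2 called Glra1, as did edgeR without the low-count filter and without PBS 2, and limma-voom called 0. Glra1, the alpha subunit of fast inhibition on bipolar and ganglion cells, stood at 5.35, 6.47 and 2.98 CPM in PBS, against 7.81, 8.71 and 9.24 CPM in Normoxic (log2 fold change -0.80 ± 0.24, SE; edgeR adjusted p = 0.0739). Glra2, Glra3 and Glra4, further alpha subunits, had log2 fold changes of -0.57, -0.59 and -0.61 (edgeR adjusted p = 0.123, 0.129 and 0.142). For all 4 alpha subunits the PBS libraries lay below the Normoxic ones without overlap. Glrb overlapped, at 43.1 ± 6.06 CPM in PBS, against 51.1 ± 3.79 CPM in Normoxic (SD, n = 3 each; edgeR adjusted p = 0.433).

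AMPA receptors carry most fast excitation. Gria3 stood at 37.9, 45.6 and 34.4 CPM in PBS, against 58.8, 51.2 and 50.4 CPM in Normoxic, a log2 fold change of -0.44 ± 0.11 (SE; edgeR adjusted p = 0.0401). The groups did not overlap, and PBS 2 was again closest to Normoxic. Gria2, the subunit whose edited form keeps calcium out, had 100, 113 and 65.6 CPM in PBS, against 140, 123 and 126 CPM in Normoxic (log2 fold change -0.48 ± 0.17, SE; edgeR adjusted p = 0.135). Gria4 was lower without overlap and was not called (-0.25; 0.217), and Gria1 averaged 77.8 ± 10.3 CPM in PBS, against 77.1 ± 2.00 CPM in Normoxic. The ratio of Gria1 to Gria2 per length was 1.62, 1.15 and 2.00 in PBS, against 1.02, 1.10 and 1.11 in Normoxic. It was higher in each PBS library than in any Normoxic library. Gria1 has 6272 bases and Gria2 11370, and the ratio was highest in PBS 3, whose counts fell most with gene length (Spearman -0.49 against its own group, across genes). The part of length in this ratio was not tested.

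NMDA receptors need Grin1 together with a Grin2 or Grin3 subunit. Grin1 stood at 176, 171 and 147 CPM in PBS, against 214, 223 and 207 CPM in Normoxic, and the log2 fold change was -0.37 ± 0.10 (SE; edgeR adjusted p = 0.0437). Grin1os, an RNA from the opposite strand of the locus, was at 5.45 ± 3.41 CPM in PBS, against 6.91 ± 1.04 CPM in Normoxic (SD, n = 3 each), a small level beside that of Grin1, and the sources used here do not state whether counting used strand. All 7 NMDA subunits had negative log2 fold changes (median -0.373). Grin3a, which lowers the calcium flow of the channel, stood at 8.09, 10.3 and 8.44 CPM in PBS, against 13.2, 12.2 and 16.9 CPM in Normoxic, and narrowly missed the threshold (-0.65 ± 0.18, SE; edgeR adjusted p = 0.0607). DESeq2 called it, as did edgeR without the low-count filter and with the length trend within groups removed. Grin2c (-0.62), Grin3b (-0.56) and Grin2b (-0.35) were lower without overlap and were not called, and Grin2a (-0.22) and Grin2d (-0.24) overlapped.

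Of the 4 kainate subunits counted, 0 were called by edgeR, DESeq2 or limma-voom, and 0 had an unadjusted p under 0.05. Grik5, which needs another kainate subunit to form a channel, stood at 209, 198 and 120 CPM in PBS, against 215, 261 and 240 CPM in Normoxic, lower without overlap in a wide spread (-0.44 ± 0.21, SE; edgeR adjusted p = 0.264). Grik2 was at -0.37, and Grik3 and Grik4 at 0.27 and 0.26. Grik1, a kainate subunit of OFF bipolar cells outside the symbol patterns, fell (77.6 ± 7.80 CPM in PBS, 112 ± 3.21 CPM in Normoxic, SD, n = 3 each; edgeR adjusted p = 0.00812), so the kainate family as a whole is not described by its 4 members alone.

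The delta receptors, which bind cerebellins at synapses, were not called by any of the 3 tools (Grid1 -0.06). The 7 metabotropic receptors likewise had 0 calls by the 3 tools, and all 7 log2 fold changes were negative (median -0.241). Grm2 was lower without overlap (-0.24), and Grm3, Grm4, Grm5, Grm7 and Grm8 overlapped. Grm6, the glutamate receptor of ON bipolar cells and not a member, was at 234 ± 66.5 CPM in PBS, against 362 ± 21.5 CPM in Normoxic (-0.63 ± 0.19, SE; edgeR adjusted p = 0.084).

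**Figure D3:**
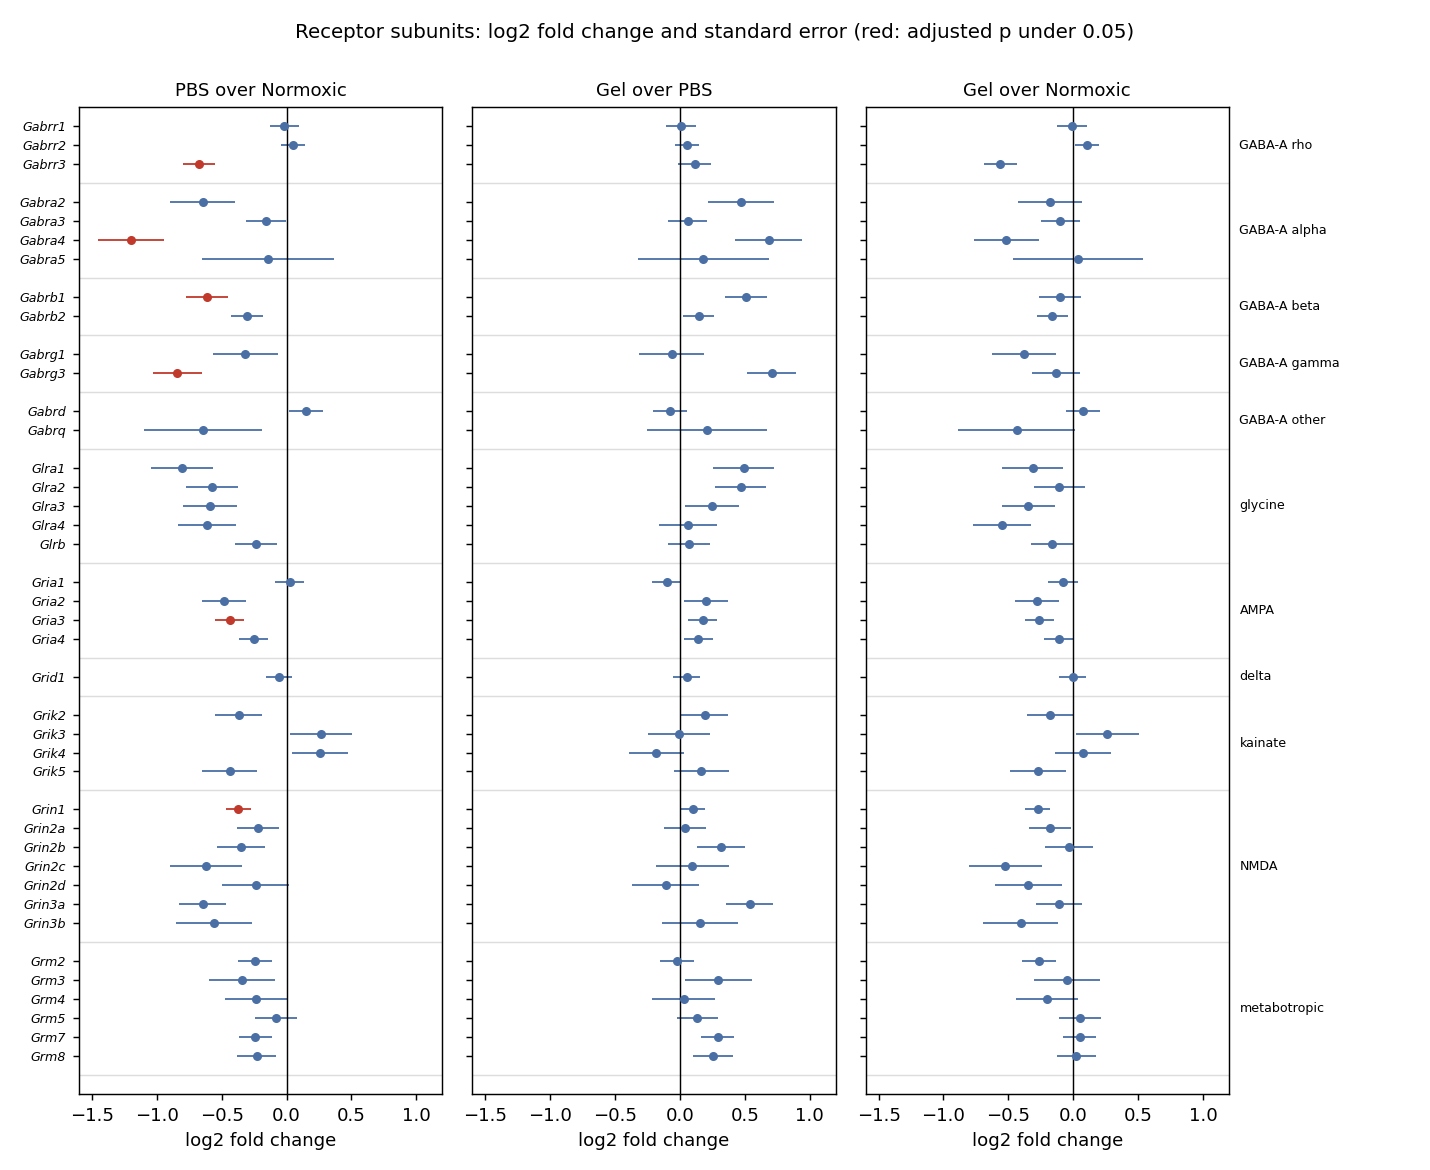
Log2 fold change and standard error of 40 of the 45 subunits by family, for PBS over Normoxic, Gel over PBS and Gel over Normoxic, with genes at an adjusted p under 0.05 in red. On the left 35 of 40 points lie below 0 and 6 are red, and in the other panels no point is red.

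These calls rest on few libraries. Leaving out any 1 Normoxic library left Gabrr3 as the only member called, and leaving out PBS 1 left Gabrr3 and Gabra4. PBS 3 stood apart in its relation between counts and gene length and in the share of ribosomal protein genes (2.92%, against 1.19% to 1.81% in the other 8 libraries). Without it 3 members were called (Gabra4, Gabrr3 and Gabrg3) and 37 of 45 log2 fold changes were negative (median -0.268). Without PBS 2, the PBS library closest to Normoxic, 7 were called. The calls of Gria3, Grin1 and Gabrb1 were lost without Gel 2 or Gel 3, which enter the fit through the shared spread only, and with the 6 libraries of the comparison alone Gabrr3 and Gabra4 were called.

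Receptor genes are long, and length moved with the fold changes. Across all genes the log2 fold change of PBS over Normoxic fell with gene length (Spearman -0.30, across genes, which are not independent replicates). Of the members, 26 lay in the longest of 4 equal length classes of genes (6064 bases and more), where the median was -0.333 for members and -0.117 for all genes, and 40 of the 45 lay below the median of all genes in their own length class. After a length trend was removed from every library, 38 members were negative, the median was -0.184 and 5 were called, with Gabrb1, at 14565 bases among the longest members, lost (edgeR adjusted p = 0.148). Gabrr3, the shortest member at 1456 bases, remained called.

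**Figure D4:**
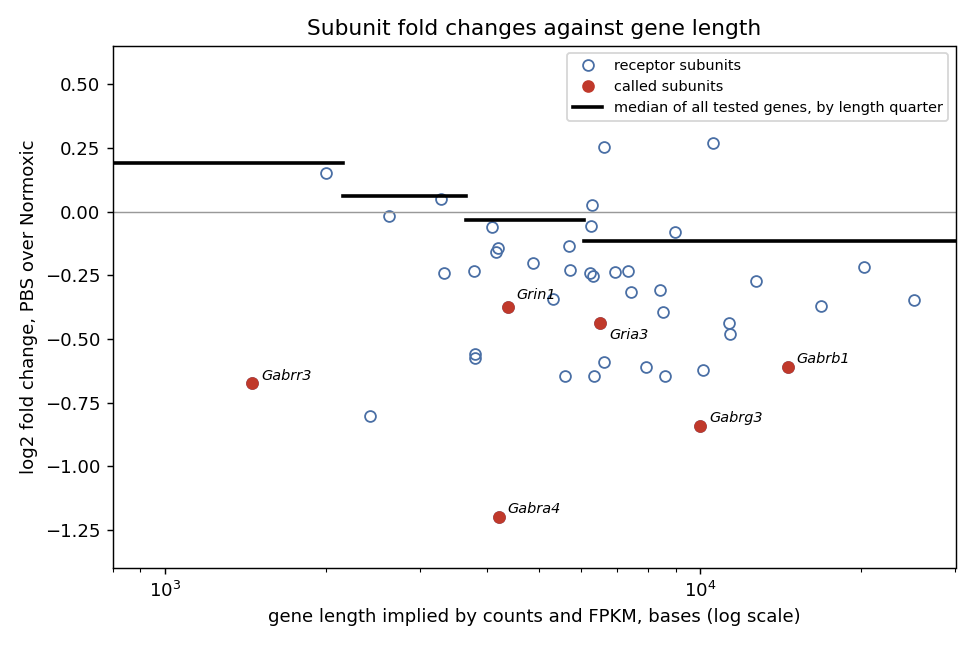
Log2 fold change of PBS over Normoxic against gene length (log scale) for the 45 subunits, filled where called, with bars for the median of all tested genes in each of 4 equal length classes. The bars step down from 0.19 in the shortest genes to -0.117 in the longest, and most subunits lie below the bar of their class.

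Ratios of subunits within a library do not depend on its depth, and 18 were compared per comparison by an exact two-sided permutation test, whose smallest possible p with 3 against 3 libraries is 0.1. They can still move with a trend of counts with gene length where the genes of a pair differ in length, and no ratio was corrected for it. In PBS over Normoxic 4 ratios did not overlap, among them Gria1 to Gria2, which was higher, and Grin2c to Grin2b, which was lower (exact p = 0.1 each, 0.45 after Benjamini-Hochberg adjustment). Both pairs differ in length (6272 and 11370 bases for Gria1 and Gria2, 10121 and 25066 for Grin2c and Grin2b). The ratios Gabrr1 to Gabrr2 (1.82 in PBS and 1.91 in Normoxic), Glra3 to Glra2 (0.345 and 0.346) and Grm8 to Grm7 (1.19 and 1.19) were close in the means and overlapped.

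The genes that make, release, clear and anchor these transmitters and receptors were followed in 9 lists of 123 genes. In PBS over Normoxic 2 of the 123 rose and 12 fell, where 4.31% of all genes were called higher and 2.03% lower. The median was -0.221, against 0.0098 for all genes. Of 12 genes of GABA and glycine synthesis, release and uptake, 4 fell, among them Slc6a9, the glycine transporter (239 ± 26.8 CPM in PBS, 373 ± 11.2 CPM in Normoxic), Gad1, which makes GABA (235 ± 16.1 and 354 ± 8.73 CPM in the same order, SD, n = 3), and the GABA transporter Slc6a11, while Gldc, which breaks glycine down, rose. Slc6a9 and Gad1 are also among the amacrine markers that fell, so their falls are not separate observations. Kcnj9, a potassium channel subunit opened by GABA-B receptors, fell to 91.3 ± 18.1 CPM in PBS, against 169.9 ± 1.38 CPM in Normoxic (SD, n = 3; log2 fold change -0.89, edgeR adjusted p = 0.00351), as the only one called of 8 GABA-B genes. Hap1, a transport protein of GABA-A receptors, fell among 16 genes of the inhibitory postsynapse (184 ± 24.5 CPM in PBS, 303 ± 5.37 CPM in Normoxic; edgeR adjusted p = 0.00459).

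On the glutamate side, Slc17a8, a vesicular transporter found in some amacrine cells, fell among 13 genes of synthesis, release and uptake. Of 21 auxiliary subunits of AMPA and kainate receptors, Cacng4 and Cacng5 fell and Olfm2 rose (97.9 ± 18.5 CPM in PBS, 54.2 ± 0.320 CPM in Normoxic, SD, n = 3; edgeR adjusted p = 0.00308). Of 26 scaffold genes Homer2 and Grip1, which holds AMPA receptors, fell, and of 17 partners of delta and metabotropic receptors Plcb1, the phospholipase activated by Grm5, fell (14.1 ± 2.24 CPM in PBS, 26.3 ± 2.41 CPM in Normoxic; edgeR adjusted p = 0.00537). Of 7 genes that set the chloride gradient and 3 genes of receptor RNA editing 0 were called by edgeR. Leaving out a single library ended the calls of Slc6a11, Gldc, Slc17a8, Cacng4, Cacng5, Homer2 and Grip1, and those of Slc6a9, Gad1, Kcnj9, Hap1, Olfm2 and Plcb1 held in every alternative run.

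The second question is what the gel changed in OIR retinas. In Gel over PBS 0 members were called in either direction by edgeR, DESeq2 or limma-voom, and edgeR called 0.0% of all genes higher and 0.0% lower. At an unadjusted p under 0.05, 7 members were higher (15.6%), against 1.77% of all genes, and 0 were lower, against 3.77%. Among them were Gabrg3, Gabrb1, Grin3a, Gabra4, Glra2 and Grm7. The Gel libraries lay above all PBS libraries for 3 members (6.67%; Gabrg3, Gabrb1 and Grin3a), against 2.73% of all genes, and below them for 0, against 5.15%. The log2 fold change was positive for 38 members, with a median of 0.145 (-0.012 for all genes), and with the length trend removed from every library for 35, with a median of 0.0964. With a library left out the median ran from 0.107 (without Gel 3) to 0.237 (without PBS 2), and 33 (without PBS 3) to 39 members were positive. Of the cell type markers edgeR called 0. Of 12 amacrine markers 11 had positive log2 fold changes (median 0.103; 2060 to 2230 CPM in Gel, 1900 to 2110 CPM in PBS), and of 8 Muller glia markers 7 (median 0.183; 4870 to 6380 CPM in Gel, 4330 to 6000 CPM in PBS). Bipolar markers were mixed, with 6 positive and 4 negative (median 0.0577), as were ganglion cell markers, with 6 and 4 (median 0.0274). Horizontal cell markers had 4 positive and 1 negative (median 0.136). Astrocyte markers summed to 152 to 203 CPM in Gel, against 295 to 461 CPM in PBS, and microglial markers to 107 to 143 CPM in Gel, against 138 to 212 CPM in PBS (median -0.438). Their part in the receptor values was not tested.

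Gabrg3 stood at 16.9, 13.4 and 14.9 CPM in Gel, against 6.91, 12.5 and 8.41 CPM in PBS (log2 fold change 0.71 ± 0.19, SE; edgeR adjusted p = 0.576). Gabrb1 stood at 8.62, 9.06 and 10.9 CPM in Gel, against 5.99, 8.28 and 5.94 CPM in PBS (0.51 ± 0.16; 0.65). Grin3a stood at 11.9, 15.6 and 11.3 CPM in Gel, against 8.09, 10.3 and 8.44 CPM in PBS (0.54 ± 0.18; 0.704). In these 3 genes the lowest Gel library exceeded the highest PBS library by a small margin. Across all genes the log2 fold change of Gel over PBS rose with gene length (Spearman 0.32). Gabrg3, Gabrb1 and Grin3a have 10009, 14565 and 8580 bases, all in the longest length class. The part of length in their separation was not tested. Gabra4 stood at 4.14, 5.44 and 7.03 CPM in Gel, against 2.23, 4.19 and 3.91 CPM in PBS, with overlap (0.68 ± 0.26; 0.79). Gabrr3 showed little difference, at 11.6, 13.2 and 11.3 CPM in Gel, against 12.1, 11.4 and 9.85 CPM in PBS (0.11 ± 0.12; 0.987). The ratio Grin3a to Grin1 was higher in Gel without overlap (exact p = 0.1, adjusted p = 0.6). Of the 123 partner genes 0 were called by edgeR (median 0.0936).

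Set against Normoxic retinas, Gel retinas had 0 members called by edgeR in either direction, against 0.288% of all genes lower and 1.12% higher. limma-voom called 0 members and DESeq2 called Gabrr3. At an unadjusted p under 0.05, 4 members were lower (8.89%; Gabrr3, Grin1, Glra4 and Gria3), against 6.04% of all genes, and 0 were higher, against 7.19%. The Gel libraries lay below all Normoxic libraries for 6 members (13.3%; those 4 with Gabra4 and Grm2), against 12.8% of all genes, a share near the background, and above them for 0, against 11.1%. The median log2 fold change was -0.135 (0.0007 for all genes), and 34 members were negative. With the length trend removed from every library the median was -0.0854 and 32 were negative. By family the medians were -0.313 for glycine, -0.274 for NMDA and -0.187 for AMPA receptors, and -0.103 and -0.135 for beta and gamma subunits. The glycine median was -0.185 without Normoxic 1, the gamma median was -0.0713 without Gel 2, and the beta median was -0.202 without Gel 3, -0.0306 without Gel 1 and -0.0578 without Normoxic 1.

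Gabrr3 was the member nearest to a call, at 11.6, 13.2 and 11.3 CPM in Gel, against 18.2, 17.4 and 18.0 CPM in Normoxic, with no overlap (log2 fold change -0.56 ± 0.12, SE; edgeR adjusted p = 0.0568). It passed the test in DESeq2 (adjusted p = 0.00168), in edgeR with the 6 libraries alone (0.0276) and without PBS 3 (0.0208). Grin1 stood at 182, 174 and 173 CPM in Gel, against 214, 223 and 207 CPM in Normoxic (-0.27 ± 0.10, SE; edgeR adjusted p = 0.222). Gria3 was at -0.26 ± 0.11 and Glra4 at -0.55 ± 0.22 (edgeR adjusted p = 0.329 and 0.305). Of the 123 partner genes 1 fell, Kcnj9 (96.3 ± 8.0 CPM in Gel, 169.9 ± 1.38 CPM in Normoxic, SD, n = 3; edgeR adjusted p = 0.0147, and 0.0735 to 0.0889 without Gel 2, Gel 3 or any Normoxic library). Amacrine markers summed to 2060 to 2230 CPM and bipolar markers to 1470 to 1630 CPM in Gel, overlapping the PBS sums and below the Normoxic sums of both lists, and their part in these differences was not tested.

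The comparisons share libraries, so their values are set side by side only. Gabrg3 averaged 15.1 ± 1.72 CPM in Gel, 9.27 ± 2.88 CPM in PBS, against 16.6 ± 0.986 CPM in Normoxic, and Gabrb1 averaged 9.54 ± 1.24, 6.74 ± 1.34 and 10.3 ± 0.686 CPM in that order. Gabrr3 averaged 12 ± 1.01 CPM in Gel, 11.1 ± 1.17 CPM in PBS, against 17.8 ± 0.434 CPM in Normoxic (SD, n = 3 each). Of the 6 called subunits, the Gel mean lay nearer to Normoxic for Gabrg3 and Gabrb1, and nearer to PBS for Gabrr3, Grin1 and Gria3. For Gabra4 it lay between, nearer to PBS in mean CPM and nearer to Normoxic in log2 fold change (0.685 over PBS, -0.514 over Normoxic).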

How the data were processed

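The members and all gene lists were chosen with earlier results of these data known. The authors deposited whole-number counts per gene and a table of FPKM. The submitters' processing notes name the build GRCm39 and the tools DESeq2 1.4.5, RSEM 1.3.1 and Bowtie2, with no role given. The sources used here do not state if the counts were estimated by RSEM and then rounded. Each deposited FPKM value equals the count over the library total and a single length per gene (relative spread at most 2.9e-10), which gave gene length. Totals ran from 29324142 to 35663470 counts, so 1 CPM rests on at least 29.3 counts.

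The filter for low expression was filterByExpr (minimum count 10), which kept 17362 of 26683 genes and all 45 members. edgeR 4.0.16 in R 4.3.3 fitted all 9 libraries by group with TMM factors and a quasi-likelihood F test, with Benjamini-Hochberg adjustment over all kept genes and a threshold of 0.05. Standard errors are the log2 fold change over the root of F. The edgeR fit of PBS over Normoxic and the removal of a length trend from every library were tested on simulated data. Alternatives were RLE size factors, DESeq2 1.42.0, limma-voom (limma 3.58.1), no filter, a length trend removed from every library or within groups, the 6 libraries compared, a replicate block and each library left out. Libraries with the same number were treated as unpaired in the main fit. Their deviations correlated between -0.21 and 0.36, which with 3 libraries in each group cannot settle whether they are matched. Replicates of every group differed by more than sampling noise. Named genes were the called members, the most abundant and the 2 with the smallest p of each family, Grik1 and Grm6, up to 4 called genes of each partner list and the members nearest the count minimum. Promoters and gene order came from RefSeq (GRCm38.p6), and no other coordinates are given because the builds differ. Some members and partner genes enter every count, median and sum but are not reported by name here.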

Additional observations from a re-analysis of the deposited data

How the results depend on the processing

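The members' direction held widely: in PBS over Normoxic 37 to 40 of 45 log2 fold changes were negative in every alternative run, and Gabrr3 was called in all of them. Members called in PBS over Normoxic numbered 6, with 8 by DESeq2 (Glra1 and Grin3a added) and 5 without the low-count filter (Gria3, Grin1 and Gabrb1 lost, Grin3a and Glra1 added). They numbered 10 when the length trend within groups was removed, 2 with the 6 libraries alone and 1 to 7 when a library was left out. With the replicate block they numbered 3 (Gabra4, Gabrr3 and Gabrg3), and the labels do not state whether libraries with the same number are matched. All genes called numbered 1101, with 1936 by DESeq2, 2257 with the length trend within groups removed and 455 to 1184 with a library left out, and partner genes 14, with 36 under the within-group length trend and 6 to 19. Family medians that moved by more than the spread between replicates were those of delta receptors (-0.164, against -0.0382 without the length trend) and rho subunits (-0.0163, against -0.0984 without PBS 3). Without PBS 2 delta stood at -0.259 and rho at 0.02, both within that spread. Others moved by over 1.5 times within that spread. With a library left out alpha ran from -0.518 to -0.107, against -0.202, the theta and delta GABA-A subunits ran from -0.387 to -0.0538, against -0.247, and kainate ran from -0.18 to 0.0678, against -0.0574. Without the length trend kainate was at 0.0762, beta at -0.184, gamma, which was at -0.208 without PBS 1, at -0.21, and metabotropic at -0.16. Grid1 changed sign (0.02168 without the length trend and -0.1325 to 0.002517 with a library left out), as did Gabrr1 (-0.0984 to 0.02).

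In Gel over PBS all genes called were 0, with 62 by DESeq2, 24 without the filter, 3 and 5 with the length trend removed from every library and within groups, and 0 to 12 with a library left out. In Gel over Normoxic members called were 0, with 1 by DESeq2, 1 with the 6 libraries alone and 0 to 1 with a library left out. All genes called were 245, with 845 by DESeq2, 389 without the filter, 437 and 532 with the length trend removed from every library and within groups, 643 with the 6 libraries and 47 to 735 with a library left out. Partner genes called were 1, with 4 and 5 under the length trends and 0 to 5 with a library left out. Without the length trend the beta median was -0.000744 and the AMPA median -0.14. With a library left out medians ran from -0.0898 to 0.0773 (rho), -0.21 to -0.135 (AMPA) and -0.171 to 0.00202 (metabotropic). Some of these runs, not all, moved by more than the spread between replicates. The cause of these changes was not tested. Depth limits Gabra5 and Gabrq, at under 1.4 CPM in every library.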
